A study of Rattus norvegicus with 11 samples.

Results

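miR-335, miR-130a and miR-130b (rno-miR-335, rno-miR-130a and rno-miR-130b on the arrays) are 3 miRNAs reported as raised in pancreatic islets of the Goto-Kakizaki (GK) rat, a lean rat line bred for type 2 diabetes. They were picked here by name, leaving out their opposite strands, and make up 3 of the 687 miRNA names on the arrays and 3 of the 340 names that both array designs carried. No GK rat was measured in this series. The arrays measured islets of female Sprague Dawley rats whose fathers had eaten either a high-fat diet with 43% fat (HFD, 5 arrays) or chow with 9% fat (Control, 6 arrays). Fathers of both groups were mated at 15 weeks with chow-fed females, the daughters were weaned at 3 weeks, and islets were taken at 13 weeks. The comparison thus asks whether miRNAs raised in diabetic islets also differ in daughters whose fathers' diets differed. Litters and fathers of the single daughters are not stated in the labels, so p-values measure only the spread between these samples.

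A miRNA lowers the output of mRNAs that pair with its seed, a short stretch near its 5′ end, so miRNAs with the same seed can share targets. miR-335 is made from an intron of Mest, an imprinted gene. miR-130a and miR-130b belong to a seed family with miR-301a and miR-301b, and raising miR-130a or miR-130b in beta cells is known to lower glucokinase, the glucose sensor of insulin secretion, and a subunit of pyruvate dehydrogenase, which feeds pyruvate into the mitochondria.

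The mature strands are shown first, with the seed (bases 2 to 8) in capitals, because the arrays gave clear signal for one of the pair miR-130a and miR-130b and none for the other although they are nearly the same RNA. The sequences are from RefSeq, build GRCr8. Of the 3 miRNAs, 2 matched an entry of that table. 
miR-130a-3p: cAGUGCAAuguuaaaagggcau
miR-130b-3p: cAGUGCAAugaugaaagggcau
miR-301b-3p: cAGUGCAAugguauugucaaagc
These were the 3 mature sequences with the seed AGUGCAA among 693 rat mature sequences in the table. miR-130a-3p and miR-130b-3p share 20 of 22 bases. They differ at U11A and A13G, counted from the 5′ end with the base of miR-130a first. Both share their first 10 bases with miR-301b-3p.

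The hairpins show from where each strand is cut. In the first pair the mature strand is in capitals, and in Mir301a, which the table lists without a mature strand, the seed letters are in capitals.
Mir130a: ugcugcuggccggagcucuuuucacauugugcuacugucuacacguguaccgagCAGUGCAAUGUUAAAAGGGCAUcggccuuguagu
Mir130b: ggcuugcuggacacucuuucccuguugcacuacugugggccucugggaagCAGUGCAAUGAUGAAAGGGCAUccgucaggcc
Mir301a: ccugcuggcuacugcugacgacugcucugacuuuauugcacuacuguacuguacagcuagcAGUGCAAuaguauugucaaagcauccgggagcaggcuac
Mir130a lies at chr3:90229228-90229315 on the minus strand. Mir130b lies at chr11:97384380-97384461 on the plus strand, 269 bases from the Mir301b hairpin. Mir301a lies at chr10:72422599-72422698 on the plus strand.

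Each array was a 1-colour Agilent miRNA array. A first design held 350 miRNAs and was used for 4 Control and 4 HFD arrays on 1 slide, and a second held 677 and was used for 2 Control arrays and 1 HFD array on another. Each of the 3 miRNAs had 2 probes of 10 spots on either design. Of the 340 shared names, 85 were detected on all 11 arrays and 152 on at least 5, and the latter were tested. HFD 653 stood apart on the first design. It detected 105 shared miRNAs, where its 7 neighbours on the slide detected 138 to 157, and its negative-control spots had an SD of 11.6 against 2.03 to 2.41. The islet miRNAs miR-375, miR-7a and miR-7b were detected on all 11 arrays, and none of 4 liver and muscle markers was detected on any.

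miR-335 was detected on 10 of 11 arrays. With all 11 arrays, HFD 653 included, which gave no signal for it, the difference did not pass the test. On each of the 4 HFD arrays that detected miR-335 the level lay above that of every Control array of the same design. Without HFD 653 such an order was seen for 2 of 152 tested miRNAs (1.32%). For miR-335 it did not hold with no scaling, quantile normalisation or normexp background correction. Signals were scaled so that the arrays could be compared (linear units, background already subtracted). On the first design the scaled signal of miR-335 was 19.9, 33.3, 26.9 and 28.0 in Control 602, 613, 615 and 639. It was 39.7, 42.7 and 48.4 in HFD 603, 607 and 644, and HFD 653 read -22.3. The Control arrays thus lay together at 27.0 ± 5.50 (SD, n = 4), and 3 HFD arrays lay above all of them. The reading of HFD 653 was within its noise and cannot be ordered. With that reading the mean of the 4 HFD arrays was 27.1 ± 33.2 (SD). Its closeness to the Control mean rests on HFD 653 and does not show that the groups were alike. On the second design the scaled signal was 153 and 120 in Control 635 and 652 and 172 in HFD 640, so the lone HFD array was again the highest.

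**Figure D1:**
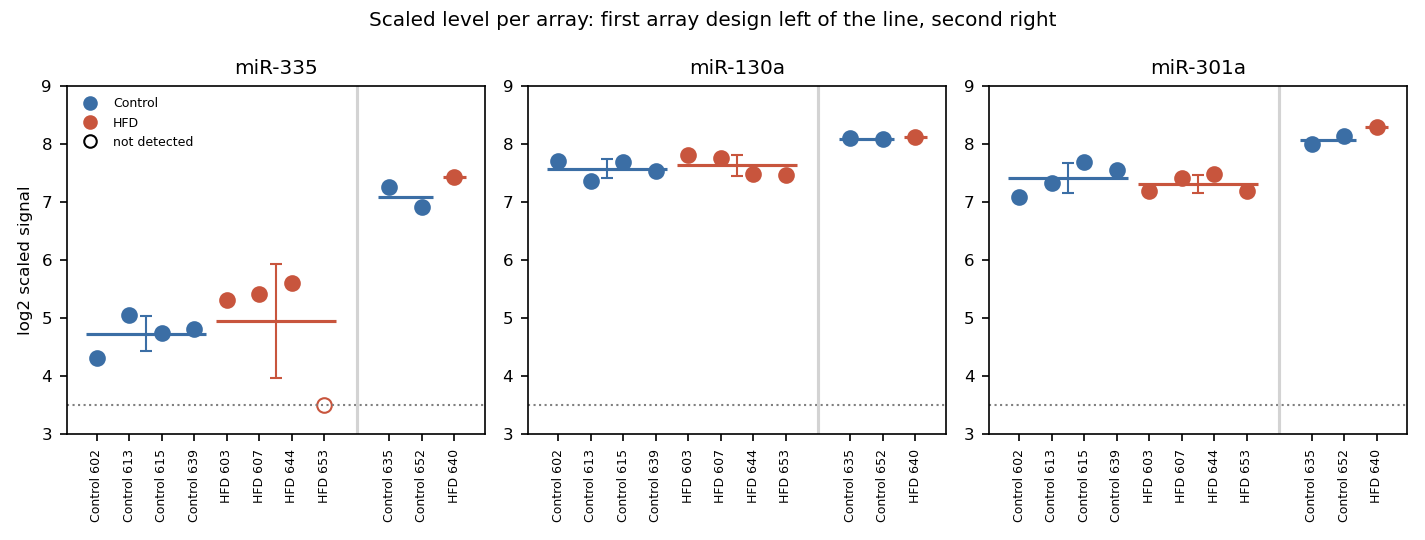
Scaled level (log2, vertical axis) of miR-335, miR-130a and miR-301a on each array, Control in blue and HFD in red; horizontal lines are group means within an array design, error bars are SDs over 4 arrays, the open circle was not detected, and the dotted line is the floor at 3.49. Levels are not comparable between the 3 miRNAs, which have different probes. For miR-335 the 3 filled HFD points of the first design lie between 5.31 and 5.60, above all 4 Control points, while HFD 653 sits at the floor.

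On the log2 scale, with HFD 653 set to the floor of 3.49 that was given to values too low to order, the difference of miR-335 was 0.25 ± 0.35 (SE, HFD minus Control, 5 against 6 arrays), which is 1.19-fold with a 95% confidence interval of 0.691 to 2.05. limma with array design as a block gave an adjusted p of 0.987 (Benjamini-Hochberg over 152 miRNAs). Exact permutation, with labels exchanged among arrays of one design, gave a 2-sided p of 0.562 over 210 splits. The difference depended on the floor given to HFD 653. At the 5th percentile of scaled detected values, instead of the 1st, it was 0.41 ± 0.22 (SE), with an adjusted limma p of 0.931. For background, limma called 0 of the 152 tested miRNAs at an adjusted p under 0.05 (0%), and 3 had an unadjusted p under 0.05 (1.97%). A difference above 0, as miR-335 had, was shared by 108 of 152 (71.1%), and the median difference over all 152 was 0.066. In bulk islets, fewer cells of a type and less RNA per cell cannot be told apart.

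Without HFD 653 the level of miR-335 on the first design was 5.44 ± 0.14 (SD, n = 3) in HFD and 4.73 ± 0.31 (SD, n = 4) in Control. The difference over the remaining 10 arrays was 0.61 ± 0.16 (SE), or 1.52-fold with a 95% interval of 1.19 to 1.95. Its unadjusted limma p of 0.0036 was the smallest of the 152, yet its adjusted p was 0.554, so it was not called. A difference above 0 was shared by 120 of 152 then (78.9%). The exact permutation p was 0.019 over 105 splits, where the smallest that splits of this size can give is 0.0095. HFD 653 was set aside after its values were seen, that of miR-335 among them, so these p-values describe the other 10 arrays. Under the main scaling and without HFD 653, every HFD array lay above every Control array of its design for 2 of 152 miRNAs (1.32%), namely miR-335 and miR-150. With all 11 arrays this order held for 1 of 152, miR-150 (0.658%), counting HFD 653, where miR-150 was not detected. That order of miR-335 also held without HFD 653 under 2 other scalings and with the total signal of the scanner software after the main scaling. It did not hold with no scaling, quantile normalisation or normexp background correction.

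The reading of miR-335 on HFD 653 was within its own noise. Its total signal there, as the scanner software gives it before any scaling, was -8.66 with an error of 12.7. On the other first-design arrays the total signal was 8.78 to 18.4 in Control and 14.8 to 29.2 in HFD. The lowest total signal that the software called detected on HFD 653 was 13.3, and Control 602 and Control 615 read miR-335 below that, at 8.78 and 12.0. Before scaling the groups overlapped even without HFD 653, as HFD 603, at 14.8, lay below Control 613, at 18.4.

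**Figure D2:**
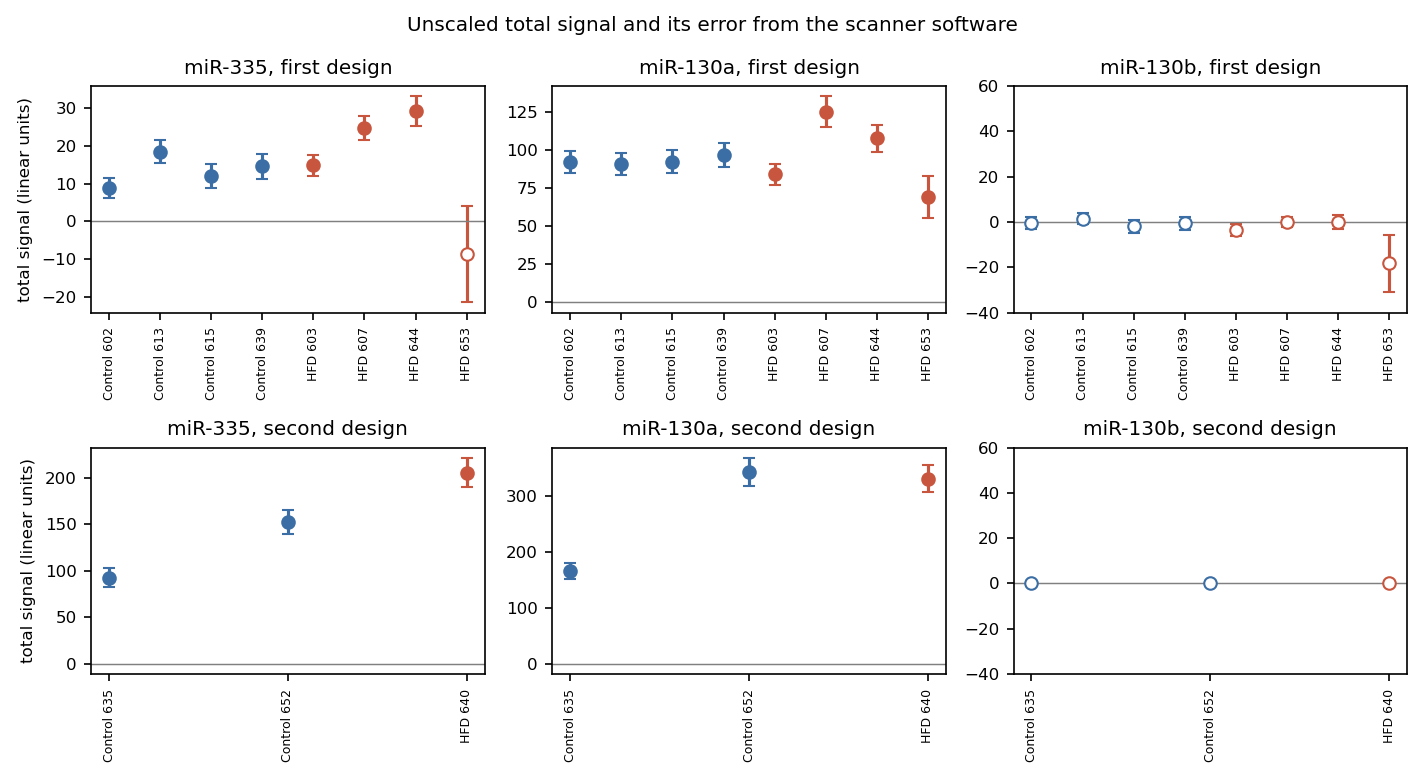
Total signal of the scanner software (linear units, not scaled between arrays, vertical axes differ) with its error bar, for miR-335, miR-130a and miR-130b on each array of the first design (top) and second design (bottom); blue is Control, red is HFD and open circles were not detected. The miR-335 reading of HFD 653, -8.66, has an error of 12.7 that spans 0, and every miR-130b point is open.

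The first-design level of miR-335 rested on 1 of its 2 probes. The first probe was well above background on 0 of 40 Control and 0 of 40 HFD spots of that design, and on 19 of 20 Control and 10 of 10 HFD spots of the second. The second probe was well above background on 27 of 40 Control and 29 of 40 HFD spots of the first design, none of the latter on HFD 653. Its scaled signal was 20.2 to 27.8 in the 4 Control arrays, 35.6, 35.5 and 39.6 in HFD 603, 607 and 644, and 0.300 in HFD 653. The second probe gave most of the summed first-design signal, so this order repeats that of the sum and is no further support. Before scaling, HFD 603 read 20.8 on it, below Control 613 at 23.9. With all 11 arrays the difference of the second probe alone was 0.25 ± 0.30 (SE), and its adjusted limma p was 0.987.

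Of the summed markers of other cells, the acinar, leukocyte, endothelial and mesenchymal sums were highest on HFD 603 among the first-design arrays. The acinar sum was 732 there and 684 on Control 602, the next highest. The summed scaled signal of 5 leukocyte miRNAs on the first design was 62.5 to 75.7 in Control and 62.2 to 439 in HFD, where the highest value was that of HFD 603, with 4 of the 5 detected. The leukocyte sums of HFD 607 and HFD 644 were 86.8 and 62.2, and that of HFD 653 was 137, with 0 of the 5 detected. Within that list miR-150, a lymphocyte miRNA, read 10.4 to 13.8 in Control and 230, 27.6, 14.7 and 78.2 in HFD 603, 607, 644 and 653, the last of these not called detected. On the second design it read 16.8 and 15.3 in Control and 26.6 in HFD 640, so every HFD array lay above every Control array of its design. The difference of miR-150, 1.73 ± 0.61 (SE, log2), was the largest of the 152 tested and had the smallest unadjusted limma p, 0.018, with an adjusted p of 0.987. The other tested leukocyte miRNAs did not share its size: miR-223 differed by 0.14 ± 0.31 (SE) and miR-146a by -0.082 ± 0.33 (SE). On the first design the endothelial sum (miR-126 and miR-126*) was 428 to 552 in Control and 385 to 674 in HFD. The mesenchymal sum (6 miRNAs) was 314 to 541 in Control and 324 to 735 in HFD. Each was highest on HFD 603 and next highest on HFD 607, at 609 (endothelial) and 671 (mesenchymal). Of these lists miR-142-5p, miR-126*, miR-145 and miR-199a-5p were not detected on any first-design array. Their part in the miR-335 result was not tested.

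miR-130a did not differ between the groups by more than the spread between arrays. It was detected on all 11 arrays, with 209 of its 220 spots well above background. Its scaled signal on the first design was 209, 164, 206 and 186 in Control 602, 613, 615 and 639. It was 225, 217, 178 and 177 in HFD 603, 607, 644 and 653. The groups overlapped: 2 HFD arrays lay above every Control array and the other two lay inside the Control range. On the second design the signal was 271 to 275 in Control and 277 in HFD 640.

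The difference of miR-130a was 0.049 ± 0.11 (SE) on the log2 scale, or 1.03-fold with a 95% interval of 0.878 to 1.22, so a rise of more than 1.22-fold lay outside it. The adjusted limma p was 0.987 and the exact permutation p 0.552. Its 2 probes differed in sign, at -0.077 for the first and 0.10 for the second. The sign also turned with the scaling: it was -0.18 with the 75th percentile over all shared miRNAs, where the median of all tested miRNAs was -0.15, and -0.10 with median scaling, where that median was -0.084. Without HFD 653 the difference was 0.087 ± 0.11 (SE). The within-group SD on the first design was 0.17 for miR-130a, the 121st largest of 152, against a median of 0.33. That of miR-335 was 0.73, the 16th largest, and rested on the undetected HFD 653: the SD over HFD arrays was 0.98 with it and 0.14 without it, and 0.31 over Control arrays.

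**Figure D3:**
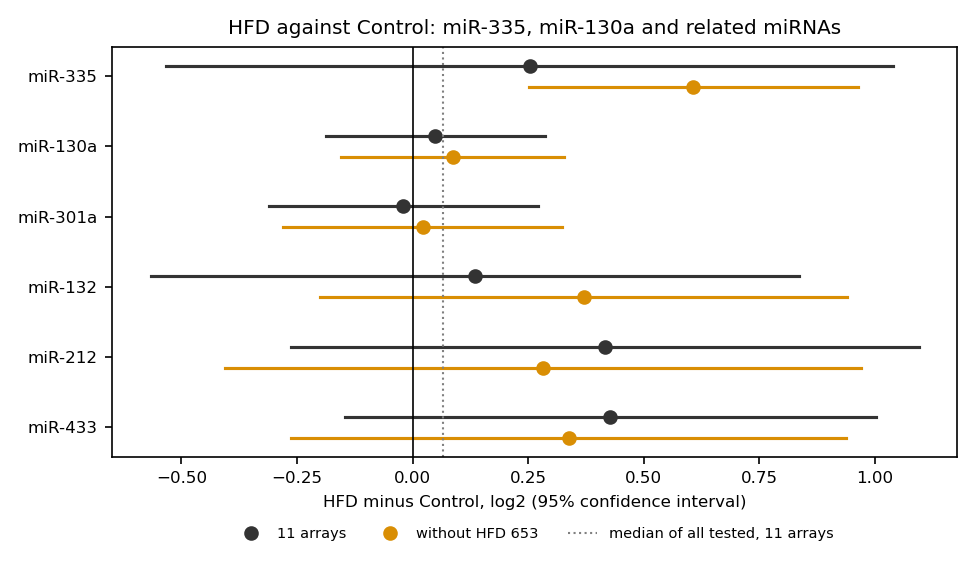
Difference HFD minus Control (log2, horizontal axis) with its 95% confidence interval for miR-335, miR-130a, the seed relative miR-301a and the tested diabetic-islet miRNAs miR-132, miR-212 and miR-433, over 11 arrays (dark) and without HFD 653 (orange); the dotted line is the median over all 152 tested. The interval of miR-335 lies above 0 only without HFD 653, at 0.25 to 0.96, and every other interval spans 0.

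miR-130b gave no signal above background on any array. It was detected on 0 of 11 arrays, and 0 of its 220 spots were well above background. Its total signal ran from -1.86 to 1.49 in the 4 Control arrays of the first design and from -18.3 to 0.034 in the 4 HFD arrays, with the lowest on HFD 653. On the second design it stood at 0.1, the value the software gave there to undetected miRNAs, on all 3 arrays. It was not detected in either group, so no fold was taken and a difference in miR-130b was not detectable with these arrays. The probes of miR-130a and miR-130b differ, so the absence of signal for one and its presence for the other do not rank their amounts.

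Of 6 listed miRNAs of the seed family, 4 were on both designs, and 2 of these, miR-130a and miR-301a, were tested. miR-301a was detected on all 11 arrays. Its scaled signal on the first design was 137 to 206 in Control and 145 to 178 in HFD, so the HFD arrays lay inside the Control range. On the second design HFD 640, at 313, lay above Control 635 and 652, at 256 and 282. Its difference was -0.020 ± 0.13 (SE), with a 95% interval of -0.31 to 0.27, and a value below 0 was shared by 44 of the 152 tested (28.9%). The adjusted limma p was 0.987 and the exact permutation p 0.905. miR-301b, whose gene neighbours that of miR-130b, was likewise detected on no array. The opposite strands miR-130a* and miR-130b* were on the second design alone and were not detected there. miR-454, miR-721 and miR-335* were on neither design.

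Among other miRNAs linked to islets of the GK rat, none passed the test. Of 7 listed, 3 were tested, all 3 had a difference above 0, as 71.1% of all tested miRNAs had, and 0 were called. Their median was 0.42 against 0.066 over all 152 tested, on the same arrays and controls as miR-335. miR-132, an activity-induced miRNA, differed by 0.13 ± 0.31 (SE), and its relative miR-212 by 0.42 ± 0.30. miR-433 differed by 0.43 ± 0.26. Neither miR-132 nor miR-433 was detected on HFD 653, Control 635 or Control 652, and miR-433 was not detected on Control 602 either. The highest scaled reading of miR-433, 57.9, was that of the undetected HFD 653. The signs of miR-132 and miR-433 turned under other scalings, to -0.26 and -0.026 with quantile normalisation. miR-142-3p, a leukocyte miRNA, was detected on HFD 603 and on the 3 arrays of the second design, and miR-409-3p on HFD 640 alone. miR-142-5p and miR-708 were detected on no array.

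Whether the difference between the groups was itself unlike on the 2 array designs was tested with an interaction term in limma. On the second design HFD 640 is alone in its group, so its spread is taken from the other arrays. For miR-335 the difference was larger by 0.13 ± 0.86 (SE) on the second design. For miR-130a it was lower there, at -0.032 ± 0.26 (SE). The adjusted p was 0.996 for each, and 0 of 152 miRNAs were called (0%). The intervals were wide, from -1.8 to 2.1 for miR-335.

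Over the 8 arrays of the first design, no correlation of miR-335 with miR-130a passed the test under the main scaling. Pearson's r was 0.206 (exact permutation p 0.636) and Spearman's rho 0.214 (exact permutation p 0.619). Leaving out HFD 653 and HFD 644, the arrays farthest from the median of miR-335, gave r = 0.149, and leaving out HFD 653 alone gave -0.097. Within groups, with each group centred, r was 0.179. With no scaling between arrays r was 0.833 (exact permutation p 0.012), and with the 75th percentile over all shared miRNAs it was 0.597 (exact permutation p 0.123). The other pairs could not be computed because miR-130b was not detected.

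The likeness of each profile to those of other miRNAs was described over the same 8 arrays, among miRNAs detected on all 11. None of 167 relations passed adjustment, and the smallest adjusted p was 0.605 by exact permutation. miR-335 was most like miR-101b (r = 0.811), miR-152 (0.762), miR-30b-5p (0.739), miR-151 (0.734) and miR-125b-5p (0.698). It was least like miR-324-3p (-0.807) and miR-500 (-0.782). Much of this rested on HFD 653, since without it r was 0.434 for miR-101b, 0.509 for miR-152 and 0.072 for miR-500. miR-130a was most like miR-106b (0.799), miR-126 (0.691), miR-15b (0.684), miR-16 (0.677) and miR-19b (0.644), and least like miR-300-3p (-0.695) and miR-98 (-0.635). Without HFD 653 it kept an r of 0.840 with miR-106b and 0.689 with miR-126. With its seed relative miR-301a its r was -0.102. These profiles share the arrays and the factor by which each array was scaled.

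**Figure D4:**
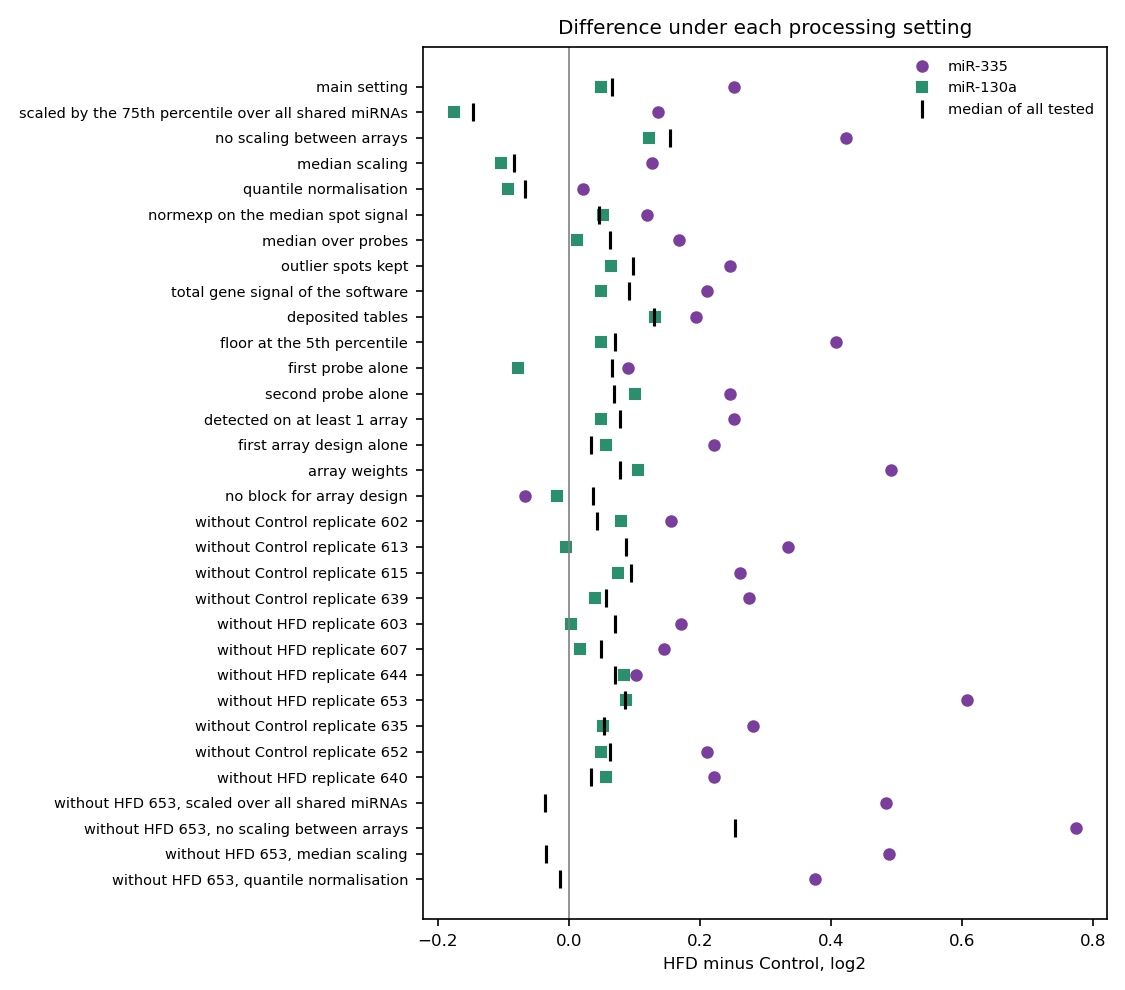
Difference HFD minus Control (log2, horizontal axis) of miR-335 (purple circles) and miR-130a (green squares) under each processing setting, with the median over all tested miRNAs as a black tick; the last 4 settings are drawn for miR-335 alone. miR-335 lies above the median under every setting shown except without a block for array design, where it is -0.067, while miR-130a takes either sign.

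The plot of differences under each setting shows how far miR-335 moved. Over 31 alternatives its difference ran from -0.067 to 0.77, and its adjusted limma p from 0.554 to 1, so it was called under none of them. It fell to 0.021 with quantile normalisation and to 0.10 without HFD 644, and was 0.49 (adjusted p 0.812) when limma weighted arrays by their noise. Without HFD 653 it was 0.61 under the main scaling, and ran from 0.38 with quantile normalisation to 0.77 with no scaling.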

How the data were processed

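Per the labels' protocols, 100 ng of islet total RNA per sample, carrying Cy3, went onto an Agilent miRNA array of 1 colour. The deposited spot intensity was written by Agilent Feature Extraction (10.5.1.1 on the first design, 10.7.3.1 on the second, per the file headers), background-subtracted and not normalised between arrays. A second deposited file gives, for each miRNA, a total intensity and a detected flag, 1 or 0, here read as the other unit. The authors also deposited log2 tables, 1 per design. Set against the scanner values, the first equals log2 of the total intensity plus 50 and the second log2 of the total intensity where detected, within 0.01 except in 7 cells of shared miRNAs, none of them of the 3 miRNAs described. Their column medians over shared miRNAs were 5.70, 5.70, 5.68 and 5.69 (Control 602, 613, 615, 639), 5.70, 5.73, 5.71 and 5.83 (HFD 603, 607, 644, 653), 6.69 and 7.01 (Control 635, 652) and 6.78 (HFD 640). The scale is thus known, values are not centred, and no ratio with a direction is held. Per the submitters' processing notes RMA and Partek were used, while what each did is not given in the sources used here.

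Here the processed signal was averaged over spots without an outlier flag, summed over probes, and scaled by each array's 75th percentile over the 85 miRNAs with detection on every array. A floor of 11.3, the 1st percentile of scaled detected values, was applied before log2. Differences came from limma 3.58.1 in R 4.3.3, 2-sided, with array design, which coincided with slide and scan, as a block, over miRNAs detected on at least 5 arrays, at an adjusted p of 0.05. The fit was tested on simulated data with normal noise. These held no noisy array and no floored values, so that test does not bear on HFD 653. No spot was saturated. A mean spot signal was not used here, so normexp, with an offset of 50, was run on the median spot signal. Alternatives covered scaling, background, probe summary, floor, detection filter, block, weights and each array left out. Those on single probes, and on scaling without HFD 653, were added after the data were seen.

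The miRNAs and lists were chosen with earlier results of these data known. Named were the 3 miRNAs, measured members of the opposite-strand, seed-family and diabetic-islet lists, the 5 most and 2 least like miRNAs by Pearson's r, and markers of other cells beside a result. Lists of acinar and red blood cell markers were summed too. On the first design the acinar sum was 23.0 to 684 in Control and 117 to 732 in HFD, highest on HFD 603. No red blood cell marker was detected on that design. miR-375, miR-7a and miR-7b differed by -0.031 to 0.064. The number of arrays limits the precision.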

Additional observations from a re-analysis of the deposited data

Results flagged for a closer look

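The level of miR-335 on HFD 653 lay far below those of the other HFD arrays of the first design: its gap to the nearest of them was 0.865 of the range of the 4 arrays, above Dixon's 95% limit of 0.829. Of 12 groups of 4 arrays examined, 1 passed this limit, where chance gives 0.6. The value of HFD 653 is the floor, since miR-335 was not detected there, and the negative-control SD of that array was 11.6.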

How the results depend on the processing

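The difference of miR-335 kept its direction and its side of the threshold under 30 of 31 alternatives. It was -0.067 without a block for array design, and leaving out 1 array at a time it ran from 0.10 (without HFD 644) to 0.61 (without HFD 653). That of miR-130a, never called, kept its sign under 22 of 28. It was -0.10 with median scaling, -0.18 when the 75th percentile was taken over all shared miRNAs, -0.092 with quantile normalisation, -0.077 with the first probe alone and -0.018 without the block, and leaving out 1 array it ran from -0.0035 (without Control 613) to 0.087. miR-301a turned to 0.053 with no scaling, 0.040 with normexp, 0.11 with the deposited tables and 0.015 with array weights. Leaving out 1 array it ran from -0.10 to 0.055, above 0 without Control 615 (0.055), Control 639 (0.024), HFD 603 (0.020) or HFD 653 (0.022). miR-132 was -0.018 with median scaling, -0.090 with the percentile over all shared miRNAs and -0.26 with quantile normalisation, where miR-433 was -0.026. The interaction of miR-130a was 0.19 with the percentile over all shared miRNAs and 0.49 with no scaling. The correlation of miR-335 with miR-130a was 0.833 with no scaling, 0.597 with the percentile over all shared miRNAs, and -0.097 to 0.404 leaving out 1 array, lowest without HFD 653. With no scaling 1 miRNA was called, which was none of these. The cause of these changes was not tested. Scaling moved the median of all tested miRNAs by -0.21 (percentile over all shared miRNAs), -0.15 (median scaling) and -0.13 (quantile).

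No paired analysis was possible because the groups share no replicate number. The difference, interaction and correlations planned for miR-130b were not run, since it was not detected on any array, and miR-335 has no value among miRNAs detected on all 11 arrays. Signal over background limits miR-335 on the first design, where 1 of its probes was not well above background, and miR-130b on both.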

Other observations

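The balance between the 2 probes of a miRNA differed between the array designs. For miR-130a the first probe gave 0.445 of the signal of the second at the median of the first-design arrays (0.387 to 0.515), and 0.914 to 0.963 on the second design. On HFD 653 none of the 10 spots of the first probe was well above background. Over 73 miRNAs detected on all 11 arrays whose 2 probes both read above 0 throughout, with no filter on how far above background, the median size of the log2 ratio was 1.97 on the first design and 0.64 on the second, and 68 of them were closer to equal on the second. The ratio is not given for miR-335, whose first probe was not well above background on the first design.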
